A study of Mus musculus with 12 samples.

Results

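The 5 miRNAs mmu-miR-99a, mmu-miR-99b, mmu-miR-100, mmu-miR-125a-5p and mmu-miR-125b-5p, which form 2 seed families, were followed through osteoclast differentiation in mouse bone marrow cultures. They were chosen by name, as the neighbors of let-7 in 3 paralogous miRNA clusters, and make up 5 of the 696 mouse miRNAs on the array. Osteoclast precursors came from the bone marrow of male C57BL/6 mice aged 6 to 8 weeks, after lysis of the erythrocytes and magnetic depletion of B220/CD45R+ and CD3+ lymphocytes, and were an enriched rather than a pure population. They were grown in α-MEM with fetal bovine serum and received M-CSF, the growth factor that keeps the precursors alive, and RANKL, the cytokine that turns them into osteoclasts, each at 30 ng/ml. For each of days 1, 3 and 5, RNA of 4 independent cultures was put on 1 single-color array per culture, 12 arrays in all. All 3 groups received both cytokines, so each change is between times and not between cells with and without RANKL. The 8 arrays of days 1 and 5 shared 1 slide and the 4 arrays of day 3 were on another, so a difference that involves day 3 cannot be told apart from a difference between slides.

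A miRNA represses mRNAs that pair with bases 2 to 8 of its mature strand, the seed, so miRNAs with the same seed can act on overlapping sets of targets. In mammals, genes of the miR-99/100 and miR-125 families flank a let-7 gene in each of several clusters that arose by duplication. The miR-99/100 family is known to target the kinase mTOR and the IGF-1 receptor. The miR-125 family is known for its role in hematopoietic stem and progenitor cells and for repressing Lin28, an RNA-binding protein that blocks let-7 maturation.

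The mature sequences are given because the seed defines each family and because the members of a family differ by few bases elsewhere. They are RefSeq entries on GRCm38.p6, 5′ to 3′, with the seed in capitals. The first 3 share the seed ACCCGUA and the last 2 the seed CCCUGAG.
miR-99a: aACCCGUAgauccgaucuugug
miR-100: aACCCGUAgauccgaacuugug
miR-99b: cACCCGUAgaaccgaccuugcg
miR-125b-5p: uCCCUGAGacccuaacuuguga
miR-125a-5p: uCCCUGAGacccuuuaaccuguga

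Counted from the 5′ end, miR-100 differs from miR-99a at 1 base, U16A. miR-99b differs from miR-99a at 4 bases, A1C, U11A, U16C and U21C, all outside the seed. The 22 bases of miR-125b-5p and the 24 bases of miR-125a-5p share their first 13 and their last 5 bases.

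Their genes lie on 3 chromosomes of GRCm38.p6, all on the plus strand. On chromosome 16, Mir99a, Mirlet7c-1 and Mir125b-2 lie in this order within chr16:77598936-77646343, a span of 47408 bases with 656 bases between the first 2 genes. The RefSeq bounds of the long noncoding RNA gene Mir99ahg end 40507 bases before Mir99a. On chromosome 9, Mir100, Mirlet7a-2 and Mir125b-1 span 50578 bases, chr9:41531425-41582002, all inside the long noncoding RNA gene Mir100hg. On chromosome 17, Mir99b, Mirlet7e and Mir125a are packed into 692 bases, chr17:17830188-17830879, inside the protein-coding gene Spaca6. The annotation used here gives no exons, so whether these genes are exonic or intronic is not stated. The mature strand of miR-125b-5p is identical at both of its genes, so its signal is the sum of chromosomes 9 and 16, while the other 4 members have 1 gene each.

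Each member was measured by 2 probes with 10 spots each, read as a fluorescence signal. The scanner software subtracts the background, sums the probes of a miRNA and records if it was detected. Quantile normalization, which gives every array the same distribution of values, was run on these sums for the 334 miRNAs that at least 1 array detected, and signals are given as log2. A change was called when the moderated test of limma gave a Benjamini-Hochberg adjusted p under 0.01 over all 334 miRNAs. Between 186 and 276 miRNAs were detected per array. The lowest count was that of replicate 4 of day 5, while the other arrays of that day detected 248 to 269. Replicate arrays of 1 day correlated with r between 0.967 and 0.997 over miRNAs detected on all arrays, and no spot of a member was saturated. All members but miR-99b were detected on all 12 arrays. At days 3 and 5 every array detected miR-99b, but at day 1 only replicates 2 and 3 did, so its day 1 level lies at the limit of detection. The miRNAs listed here as myeloid, miR-223, miR-142-3p and miR-142-5p, were detected on all arrays, which by itself does not identify the cells.

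All 5 members were up-regulated during osteoclastogenesis. From day 1 to day 5 the 3 members of the miR-99/100 family rose between 5.63-fold and 6.60-fold, miR-125b-5p rose 5.68-fold and miR-125a-5p rose 3.77-fold. After normalization between arrays, most of each rise lay between day 1 and day 3. Without it this held for miR-100 alone, and barely, at 50.3%. Since each array measured a whole culture, more RNA per cell and a larger share of the cells that carry the miRNA cannot be told apart.

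miR-99a, encoded on chromosome 16, had normalized signals of 8.74, 8.80, 8.86 and 8.88 (log2) in replicates 1 to 4 at day 1. At day 3 the signals were 10.77, 10.90, 11.02 and 11.06, and at day 5 they were 11.38, 11.47, 11.59 and 11.71. The 3 days did not overlap, and the spread within a day was small beside the steps between days. The change from day 1 to day 5 was 2.72 ± 0.09 (log2 ± SE, n = 4 per day, limma adjusted p = 9.36e-10). Before normalization, the total signal of miR-99a lay between 445 and 635 at day 1 and between 2436 and 3165 at day 5.

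miR-100, the chromosome 9 member that differs from miR-99a by 1 base, had signals of 7.18, 7.15, 7.26 and 6.94 at day 1. It reached 9.05, 9.01, 8.99 and 9.32 at day 3 and 9.58, 9.61, 9.98 and 10.03 at day 5. As for miR-99a, every later array was above every earlier one. The whole change was 2.66 ± 0.13 (SE, limma adjusted p = 1.82e-08), or 6.34-fold.

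miR-99b, encoded on chromosome 17, had signals of 6.57, 6.51, 6.81 and 6.57 at day 1. The signals were 8.50, 8.55, 8.64 and 8.48 at day 3 and 8.80, 8.99, 9.36 and 9.29 at day 5. The 3 days were again separate, with the widest spread at day 5. Its change from day 1 to day 5 was 2.49 ± 0.13 (SE, limma adjusted p = 2.36e-08). The size of this change rests on day 1 signals of which 2 of 4 were not called detected.

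miR-125b-5p, from chromosomes 9 and 16 together, had signals of 10.25, 10.39, 10.29 and 10.15 at day 1. At day 3 the signals were 12.22 in 3 cultures and 12.36 in the other, and at day 5 they were 12.65 in 1 culture and 12.82 in the remaining 3. Equal values arose because quantile normalization gives arrays on which a miRNA holds the same rank the same value, and the underlying total signals of days 3 and 5 ran from 2985 to 3548 and from 8064 to 9332. Its change from day 1 to day 5 was 2.51 ± 0.08 (SE, limma adjusted p = 3.79e-10), with no overlap between days.

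miR-125a-5p, which shares the seed of miR-125b-5p and the locus of miR-99b, was the most variable of the 5. Its signals were 7.36, 6.87, 7.79 and 7.18 at day 1, 8.44, 8.58, 8.42 and 8.88 at day 3, and 8.74, 8.90, 9.32 and 9.90 at day 5. Days 3 and 5 overlapped, since replicate 4 at day 3 lay above replicate 1 at day 5. The change from day 1 to day 5 was 1.92 ± 0.27 (SE, limma adjusted p = 7.50e-05), and the 2 days did not overlap. Without replicate 4 of day 5, the array that detected the fewest miRNAs, the change was 1.70.

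**Figure D1:**
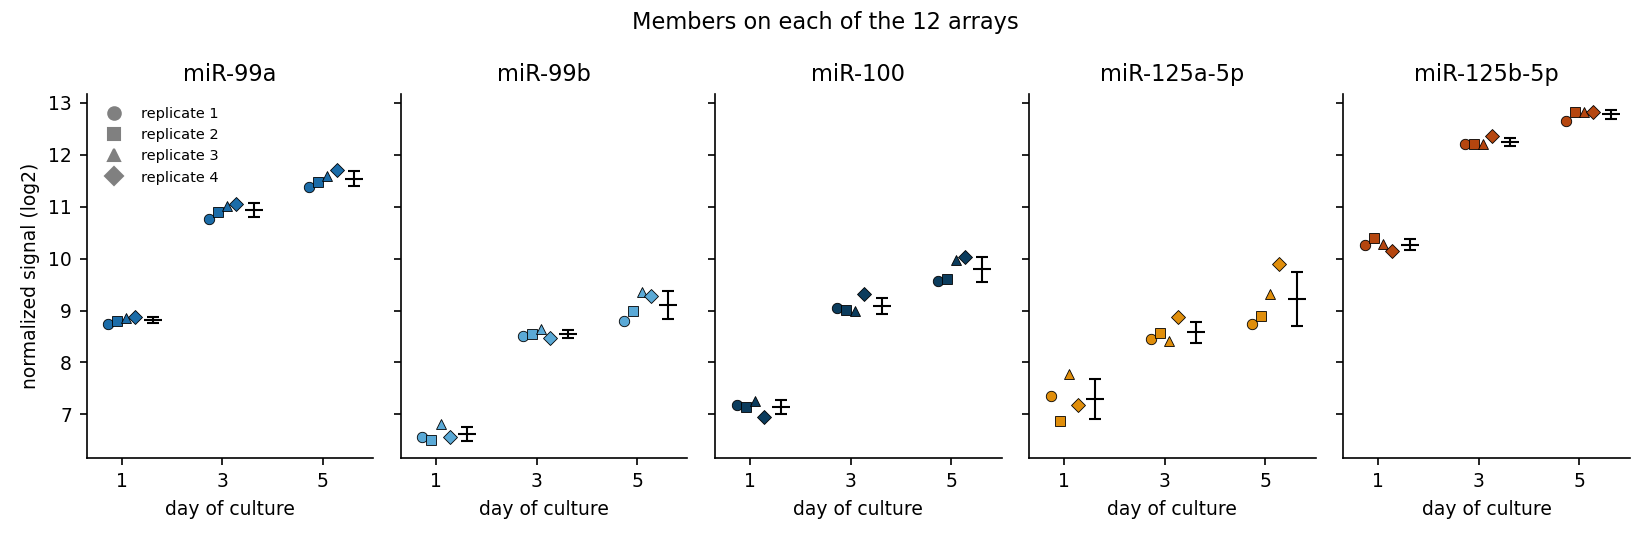
Normalized signal (log2) of each member on the 12 arrays by day of culture, with 1 point per array, marker shape for the replicate number, and the mean ± SD of the 4 arrays of a day to the right of its points. All members rise from day 1 to day 3 and less from day 3 to day 5, and miR-125a-5p has the widest spread within days, with SDs of 0.38, 0.21 and 0.52. Signals of different miRNAs come from different probes, so their heights are not comparable between panels.

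The moderated F test over the 3 days was passed by all 5 members, against 62.9% of all miRNAs tested. From day 1 to day 5, 5 of 5 members rose, where 31.7% of all miRNAs tested did. Their median change was 2.51 (log2), and the median over all 334 miRNAs was 0.11. Ranked from the largest rise, the members stood at places 40, 42, 46, 48 and 60 of 334, which puts them among the rising miRNAs but below many that rose further. With 4 arrays per day an exact permutation test (two-sided) gave p = 0.0286 for each member, the smallest value it can give. All 5 rises kept their call under every alternative processing tried, save that miR-99b drops out where detection on all 12 arrays is required. Their sizes did not, and the change of miR-99b ran from 1.20 with normexp background correction, which adds 50 to every signal, to 8.22 in the authors' deposited values, which exist for 2 of its 4 arrays of day 1. Under the same 2 alternatives the change was 1.62 and 4.36 for miR-100 and 1.12 and 4.29 for miR-125a-5p, whereas miR-99a stayed between 2.21 and 2.78 and miR-125b-5p between 2.11 and 2.68 over all alternatives, arrays left out included.

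From day 1 to day 3, 5 of 5 members rose, against 27.2% of all miRNAs tested. miR-99a rose by 2.12 ± 0.09 (log2 ± SE, limma adjusted p = 1.04e-08), miR-125b-5p by 1.98 ± 0.08 (3.01e-09), miR-100 by 1.96 ± 0.13 (3.66e-07) and miR-99b by 1.93 ± 0.13 (3.33e-07). For miR-125a-5p the step was 1.28 ± 0.27 (limma adjusted p = 0.00184). The arrays of day 3 were dimmer, and without normalization the median change of all miRNAs from day 1 to day 3 was -0.77, in place of 0.18. Even so, 4 of 5 members were called higher at day 3 without normalization. miR-125a-5p was not, at 0.42 (limma adjusted p = 0.21), and it also missed the threshold when detection on all 12 arrays was required, at 0.82 (0.0168).

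From day 3 to day 5, 4 of 5 members rose, against 14.7% of all miRNAs tested. These steps were 0.71 ± 0.13 for miR-100 (log2 ± SE, limma adjusted p = 0.00183), 0.60 ± 0.09 for miR-99a (0.000674), 0.56 ± 0.13 for miR-99b (0.00564) and 0.53 ± 0.08 for miR-125b-5p (0.000431), or between 1.44-fold and 1.63-fold. miR-125a-5p had a step of similar size, 0.64 ± 0.27, that did not pass (limma adjusted p = 0.0989, exact permutation p = 0.0571). The number of members called in this step fell to 2 under each of the 3 other scalings between arrays, with processed spot signals and in the deposited values, and rose to 5 without normalization. The call for miR-99b was also lost when any 1 of 6 arrays was left out, namely any replicate of day 3 or replicate 3 or 4 of day 5, where the step lay between 0.47 and 0.59.

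As a share of the change from day 1 to day 5, the step to day 3 amounted to 79.0% for miR-125b-5p, 77.9% for miR-99a, 77.4% for miR-99b, 73.4% for miR-100 and 66.8% for miR-125a-5p. Among the 106 miRNAs that rose from day 1 to day 5 this share had a median of 75.3%, with quartiles of 50.5% and 94.6%. All 5 members lay between these quartiles. Without normalization between arrays the shares were 50.3% for miR-100, 49.3% for miR-99a, 46.8% for miR-99b, 40.9% for miR-125b-5p and 27.0% for miR-125a-5p, so that the step from day 3 to day 5 was then the larger one for all but miR-100. Under the other alternatives every share stayed above 57%. Which step was the larger thus depends on scaling the arrays of day 3, which lie on their own slide.

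**Figure D2:**
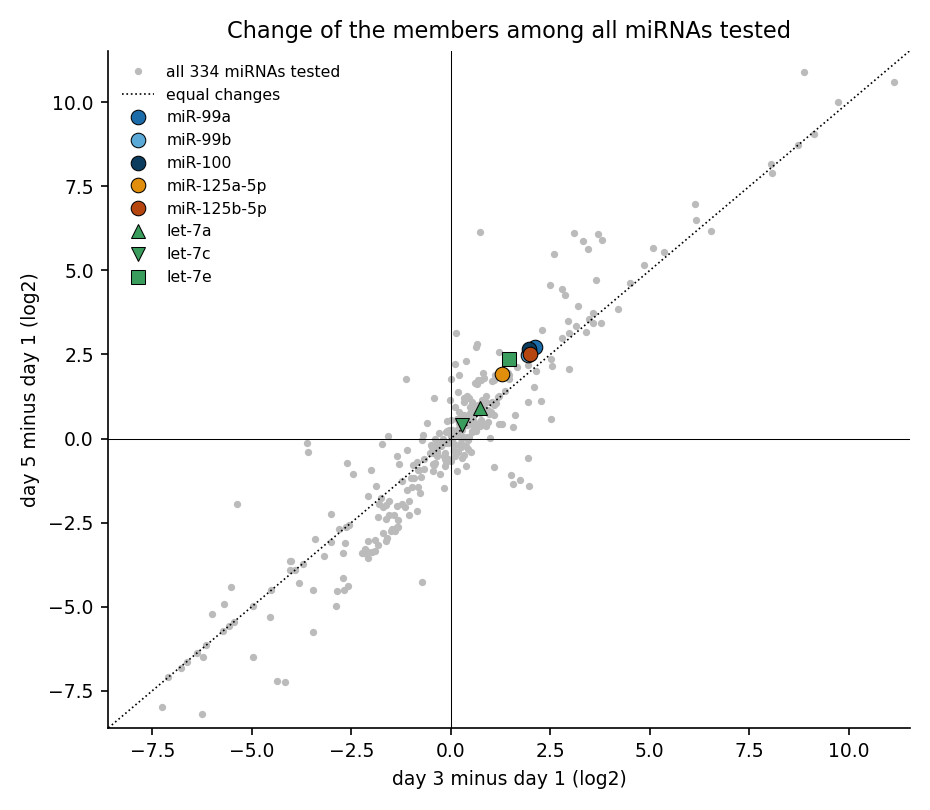
Change from day 1 to day 3 (horizontal, log2) against change from day 1 to day 5 (vertical, log2) for the 334 miRNAs tested (gray), the members (circles) and the let-7 miRNAs of their clusters (green). All members but miR-125a-5p sit close together near 2 on the horizontal and 2.5 on the vertical axis, miR-125a-5p and let-7e lie lower to the left, and let-7a and let-7c lie nearest to 0.

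Whether the members differed from each other in the size of their rise was asked within arrays, by the difference in log2 signal between 2 members. A factor common to the whole array cancels in this difference, but quantile normalization, which goes by rank, does not. None of the 10 pairs passed an adjusted p of 0.05 in the exact two-sided permutation test, in which the smallest adjusted p was 0.171 and 0 pairs reached the smallest p possible. The largest differences involved miR-125a-5p, which rose by 0.81 ± 0.27 (log2 ± SE) less than miR-99a, 0.75 ± 0.23 less than miR-100 (exact permutation p = 0.0571 for both), 0.59 ± 0.32 less than miR-125b-5p and 0.58 ± 0.21 less than miR-99b. Differences among the other 4 members were between 0.01 and 0.23 in size. The rise of miR-100 and that of miR-99a, which differ by 1 base, were 0.06 ± 0.10 apart. A test that misses its threshold does not show that these rises were equal. After adjustment over 10 pairs, none can pass unless most of them reach the smallest possible p, 0.0286. The test could thus not have called 1 member that stood apart from the rest. With normexp background correction 8 of the 10 pairs passed (adjusted p = 0.0357), and with no other alternative did any pair. That miR-125a-5p rose least did not hold in the deposited values. There miR-99a minus miR-125a-5p was -1.60 and miR-125a-5p minus miR-125b-5p was 1.70. The direction stayed for miR-99b and miR-100 minus miR-125a-5p (3.92 and 0.07).

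The let-7 miRNA between the members of each cluster gave a second comparison. It was chosen for testing after the values were known. The mature let-7 sequences, RefSeq on GRCm38.p6 with the seed in capitals, show how little the 3 differ from each other.
let-7a: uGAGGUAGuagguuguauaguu
let-7c: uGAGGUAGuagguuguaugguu
let-7e: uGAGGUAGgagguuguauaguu

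On chromosome 16, let-7c had signals of 12.56, 12.82, 12.82 and 11.99 (log2) at day 1 and 12.82, 13.06, 12.88 and 13.06 at day 5. The days overlapped, and its change of 0.41 ± 0.17 did not pass (log2 ± SE, limma adjusted p = 0.051). It did pass when arrays were scaled to the 75th percentile of all miRNAs (0.70, limma adjusted p = 0.00492) or to the median (0.74, 0.00869). Its cluster neighbors rose further on the same arrays, miR-99a by 2.31 ± 0.22 and miR-125b-5p by 2.10 ± 0.16 more than let-7c (SE). On chromosome 9, let-7a had signals of 14.63, 14.81, 14.85 and 14.18 at day 1 and 15.45, 15.62, 15.45 and 15.62 at day 5, a rise of 0.92 ± 0.14 (limma adjusted p = 0.000114). This call was lost with scaling to the 75th percentile of miRNAs found on every array (0.57, limma adjusted p = 0.0241) or to the median (0.91, 0.0115) and without normalization (0.57, 0.104). miR-100 rose by 1.74 ± 0.16 and miR-125b-5p by 1.59 ± 0.12 more than let-7a. In these 4 comparisons the within-array differences of the 2 days did not overlap, and each gave an exact two-sided permutation p of 0.0286, the smallest possible, and 0.0429 after adjustment over the 6 comparisons of this kind.

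The compact cluster on chromosome 17 gave other values. let-7e had signals of 7.85, 8.30, 8.52 and 7.24 at day 1 and 10.12, 10.29, 10.50 and 10.50 at day 5, a rise of 2.38 ± 0.24 (log2 ± SE, limma adjusted p = 6.74e-06) or 5.20-fold. miR-99b rose by 0.11 ± 0.26 more than let-7e (exact permutation p = 0.8) and miR-125a-5p by 0.46 ± 0.34 less (exact permutation p = 0.286). The differences of the 2 days overlapped in both cases. Whether the chromosome 17 cluster differs in this from the other 2 was not tested. The array lists the probes of let-7a and let-7c at a second gene each, on chromosomes 13 and 15, so their signals cannot be assigned to these clusters alone. Their mature strands differ from each other by 1 base, A19G, and by the sequences above let-7e also differs from let-7a by 1 base. How much of the signal of each let-7 miRNA came from the others was not tested. Without normalization the difference from day 1 to day 3 was -0.20 (log2) for let-7a and -0.56 for let-7c, neither past the threshold (limma adjusted p = 0.584 and 0.0497). The excess of miR-100 over let-7a fell to 0.66 with normexp background correction (adjusted p = 0.0857). With the same correction miR-99b minus let-7e turned to -0.43 and passed (exact permutation, adjusted p = 0.0429).

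**Figure D3:**
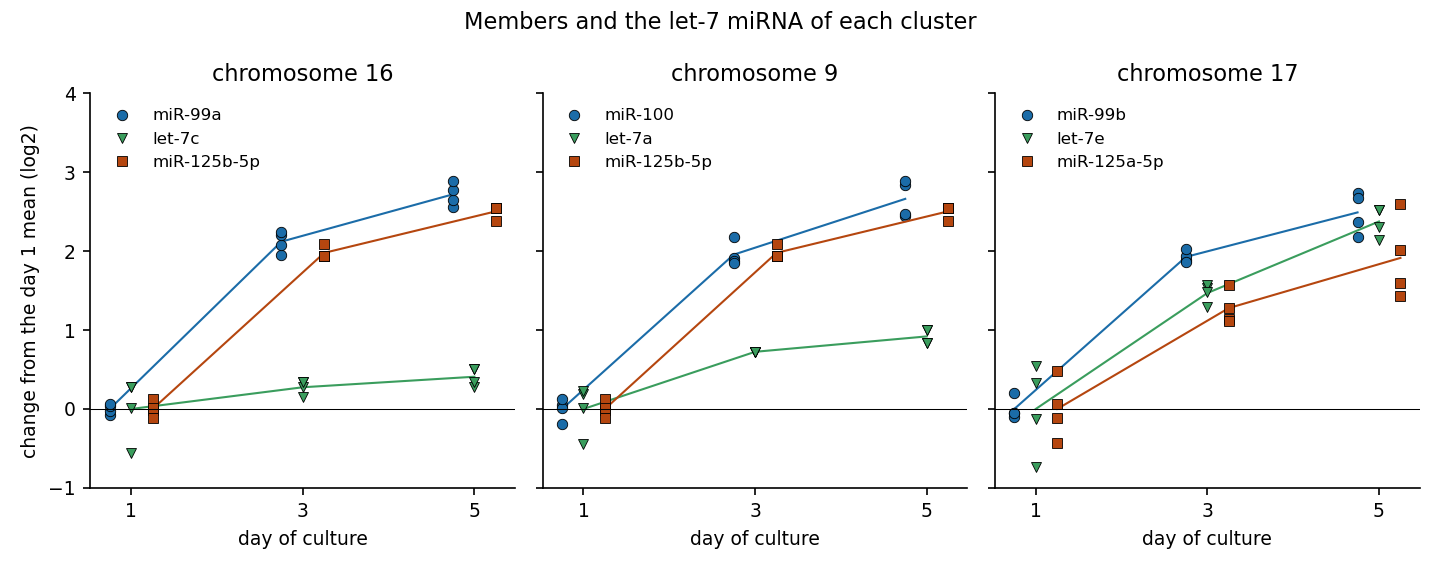
Change from the day 1 mean (log2) on each array for the members and the let-7 miRNA of the clusters on chromosomes 16, 9 and 17, with 1 point per array and lines through the means of each day. On chromosomes 16 and 9 the green let-7 points stay near or below 1 while the members pass 2 by day 5, and on chromosome 17 the 3 miRNAs lie in 1 band. miR-125b-5p, encoded in both clusters, appears in both panels with the same values.

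The probes are shown because those of miR-99a and miR-100 differ by 1 letter. The longest probe of each member of the miR-99/100 family reads as follows, 5′ to 3′, with capitals at the letters that differ between the probes of miR-99a and miR-100 and, for miR-99b, at those that differ from the probe of miR-99a.
miR-99a probe: cacaagAtcggatctacgg
miR-100 probe: cacaagTtcggatctacgg
miR-99b probe: cGcaagGtcggTtcta

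Each probe of miR-99a or miR-100 had 1 mismatch to the other miRNA and 3 mismatches to miR-99b. To miR-10a, the probes of miR-100 had 2 mismatches and those of miR-99a had 3. Probes of miR-125a-5p had 6 or 7 mismatches to miR-125b-5p, and those of miR-125b-5p had 5 to miR-125a-5p. How much of the signal of miR-99a and miR-100 came from the other, or from miR-10a, was not tested. Taken separately, all 10 probes of the members were higher on every array of day 5 than on any array of day 1. The changes lay between 1.96 and 3.08 (log2) for all but 1 probe. That probe, of 18 bases and for miR-100, gave 4.71 ± 1.04 (SE), with 2 of its 4 day 1 values at the floor of 1 unit of signal, against 2.79 ± 0.12 for the 19-base probe of the same miRNA. The probes of miR-125a-5p gave 1.96 ± 0.28 and 2.17 ± 0.32, both below every probe of the other members.

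**Figure D4:**
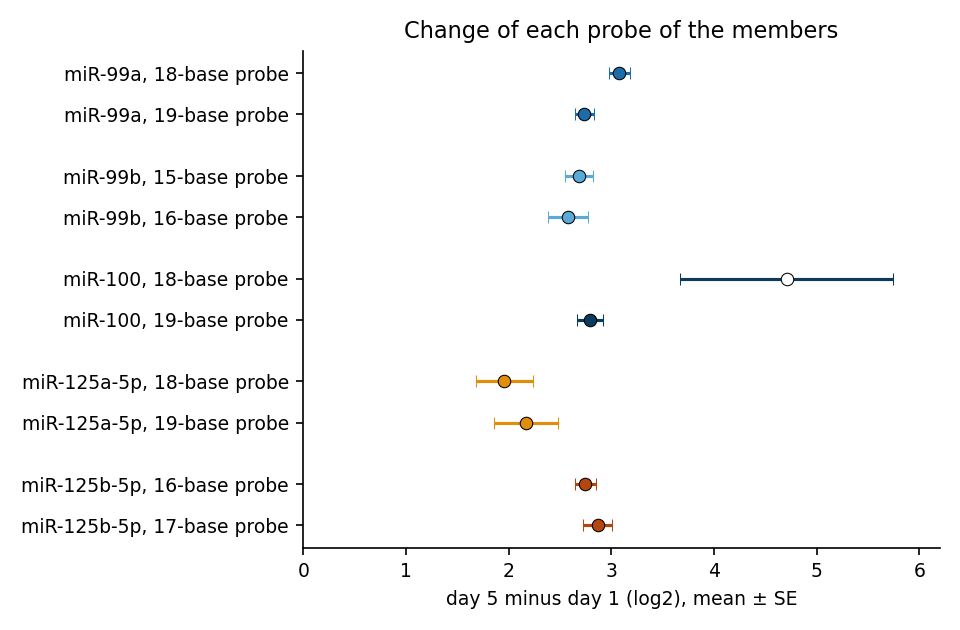
Change from day 1 to day 5 (log2, mean of 4 arrays per day ± SE) for each of the 10 probes of the members. The open circle marks the probe of miR-100 with 2 day 1 values at the floor, and all other probes lie between 1.96 and 3.08.

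No rise was called for the other strand of the same precursors. The array carries 4 entries for opposite arms. miR-125a-3p, from the precursor of miR-125a-5p, had signals of 9.05, 8.90, 8.39 and 9.01 (log2) at day 1, 8.48, 7.99, 7.61 and 6.36 at day 3, and 8.52, 7.94, 7.83 and 6.03 at day 5, and was not detected in replicate 4 of days 3 and 5. The days overlapped, and the difference from day 1 to day 5 of -1.26 ± 0.56 did not pass (SE, limma adjusted p = 0.0662). miR-99b*, miR-125b-1-3p and miR-125b-2-3p were not detected on any array.

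Other miRNAs that share a member's seed could act on the same targets. RefSeq lists 3 more mouse miRNAs with the seed of the miR-125 family and no other with that of the miR-99/100 family. Of these the array carries 1, miR-351, which was detected on 2, 1 and 2 arrays of days 1, 3 and 5 and whose change from day 1 to day 5, 1.10 ± 1.39 (log2 ± SE), did not pass (limma adjusted p = 0.515). The miR-10 miRNAs, regarded as relatives of the miR-99/100 family with another seed, did not share the rise. miR-10a fell by 0.54 ± 0.14 from day 1 to day 3 (SE, limma adjusted p = 0.00562) and stood 0.44 lower at day 5 than at day 1 (0.014, not past the threshold), and miR-10b differed by -0.02 ± 0.21 between days 1 and 5 (0.918).

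To find the miRNAs with the most similar course, each member's 12 values were centered on their mean and set against those of the miRNAs detected on all arrays, by the root mean square of the differences (log2). The nearest to miR-99a and to miR-99b was miR-326, at 0.09 and 0.12. The nearest to miR-100 and to miR-125b-5p was miR-99a, at 0.14 and 0.13. miR-326 was among the 3 nearest to each of these 4 members. miR-99b itself could not be a neighbor of the others, since it was not detected on every array. miR-125a-5p stood apart from them, nearest to miR-331-3p (0.24), miR-29b (0.31) and miR-24-2* (0.32). Of the members detected on all arrays, miR-100 was the closest to it, at place 10 of 147 (0.41). The difference between miR-125a-5p and miR-99b, which is not among these 147, was smaller at 0.38. These are descriptions over 12 arrays of the same slides, and carry no test.

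Markers of other cell types moved over the same days. Of 5 stromal miRNAs (miR-214, miR-199a-5p, miR-199a-3p, miR-145 and miR-143), 2 rose by day 3 and 4 by day 5. Their summed normalized signal lay between 437 and 666 at day 1, between 591 and 669 at day 3 and between 2600 and 3630 at day 5. miR-143 was not detected at days 1 and 3, although its rise between them was called, miR-214 was not detected at day 3 and miR-145 not at days 3 and 5. Of the 4 that rose by day 5, the step to day 3 made up 4.23% for miR-199a-3p, 23.0% for miR-199a-5p, 50.4% for miR-143 and 60.8% for miR-214, on the normalized scale on which the members' shares were 66.8% to 79.0%. The shares of miR-143 and miR-214 rest on signals that were not detected at day 3. Of the 4 erythroid miRNAs listed, the 2 that could be tested, miR-451 and miR-144, fell, and their summed signal went from 25488 to 38092 at day 1 to 136 to 268 at day 5. miR-126-3p, found in megakaryocytes and endothelium, was detected on 4 of 4 arrays at day 1 and on none later. Of the 3 lymphoid miRNAs, miR-181b rose and miR-181a fell to day 3. miR-150 was detected on 4 of 4 arrays at day 1 and on none later, and its change, with an SE of 1.37 (log2), did not pass. The summed signal of the 3, most of it from miR-181a and miR-181b, had medians of 2170, 2120 and 1909 at days 1, 3 and 5. Of the 3 miRNAs listed as myeloid, 1, miR-223, was lower at days 3 and 5. It had 20 saturated spots on each array of day 1 and 0 at day 3, so the size of its fall is not known. Whether the cell composition shifted, and what part this had in the rise of the members, was not tested.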

How the data were processed

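Each of 12 cultures, 4 per time point, was measured on its own single-color array. The scanner files deposited by the authors, written by Feature Extraction 9.5.3.1 with mm9 as the array's annotation, give background-subtracted intensity on a linear scale, not normalized between arrays. A second table from the authors gives log2 values, quantile normalized in GeneSpring, and served as an alternative.

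The 334 miRNAs that at least 1 array detected were kept, and limma 3.58.1 in R 4.3.3 was used to quantile normalize their total signals. Values under a floor of 1 were set to it (372 values, 9.28%) before log2 was taken. In limma, a model with a mean for each day gave the F test and the contrasts. Pairs of miRNAs were compared by exact permutation with adjustment over 10 or 6 pairs. The limma fit was tried on simulated log2 values with known changes and 1 spread for all miRNAs. Normalization, floor, filter and permutation tests were not part of that trial. Precision is set by the 4 arrays per day and, for dim miRNAs, by the signal over background. Python 3.11.15 with numpy 2.4.6, pandas 2.3.3 and matplotlib 3.10.9 was used for tables and figures.

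The members, the marker lists and the rule for named miRNAs (the members, opposite arms, let-7 partners, seed relatives, the miR-10 miRNAs and the 3 nearest profiles) were chosen with earlier results of these data known. Alternatives changed the scaling, the filter, the signal, the background correction, the floor, the model and the arrays used, and were also run on the let-7 comparisons, which were added after seeing the data.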

Additional observations from a re-analysis of the deposited data

Results flagged for a closer look

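In 5 of 36 groups of 4 arrays, 1 array stood apart from the other 3 by Dixon's test at the 95% level, which chance does in about 1 in 20 groups. For miR-125b-5p these were replicate 4 of day 3, at 12.36 (log2) against 12.22 on the others, and replicate 1 of day 5, at 12.65 against 12.82. In both groups the other 3 values are identical because of the quantile normalization, so any departure counts as far. The same holds for miR-10a in replicate 4 of day 3, at 9.83 against 9.63. In replicate 4 of day 5, miR-10a was at 10.15, against 9.61 to 9.70. For miR-351, replicate 2 of day 1 was at the floor, 0 on the log2 scale, against 5.84 to 6.47, and was not detected there. Dixon's test was not run on the marker miRNAs.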

How the results depend on the processing

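The rise of each member from day 1 to day 5 kept its direction and call in all 129 combinations of member and alternative, and the rise to day 3 in 122 of 124. The exceptions were miR-125a-5p without normalization (0.42) and with detection on all 12 arrays (0.82). From day 3 to day 5, 16 of 124 lost the call and 1 gained it, and the cause was not tested. With the 75th percentile of miRNAs detected on all arrays, of all miRNAs, or the median, the step was 0.36, 0.60 and 0.67 for miR-99b and 0.35, 0.59 and 0.67 for miR-100. In the deposited values it was 0.64 and 0.76. With processed spot signals it was 0.64 for miR-100 and 0.40 for miR-125b-5p, and without normalization 1.12 for miR-125a-5p. With 1 array left out, the step of miR-99b lay between 0.47 and 0.67. The number of miRNAs past the F test was 114 with detection on all 12 arrays, where only 148 were tested, and lay between 189 and 218 with 1 array left out.

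For pairs of members, normexp background correction gave differences in rise that passed for miR-99a minus miR-99b (1.01), minus miR-100 (0.59) and minus miR-125a-5p (1.10), for miR-99b minus miR-100 (-0.42) and minus miR-125b-5p (-0.91), for miR-100 minus miR-125a-5p (0.51) and, turned in sign, minus miR-125b-5p (-0.49), and for miR-125a-5p minus miR-125b-5p (-0.99). The deposited values gave -5.52, -1.67 and -1.60 for miR-99a minus miR-99b, miR-100 and miR-125a-5p, 3.57, 3.92 and 5.69 for miR-99b minus miR-100, miR-125a-5p and miR-125b-5p, and 1.70 for miR-125a-5p minus miR-125b-5p, none past the threshold. Signs also turned for miR-100 minus miR-125b-5p with the 75th percentile of miRNAs detected on all arrays (-0.16) and for miR-99b minus miR-125b-5p with processed spot signals (0.17) and with the slide of days 1 and 5 alone (0.042). With 1 array left out, miR-99a minus miR-125b-5p lay between 0.086 and 0.30.

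For the let-7 comparisons, normexp gave 0.66 for miR-100 minus let-7a, which lost its call. It gave -0.43 for miR-99b minus let-7e, which turned in sign and passed (exact permutation, adjusted p = 0.0429). The deposited values gave 6.17 for miR-99b and 0.87 for miR-125a-5p minus let-7e, neither past the threshold. Without normalization let-7a and let-7c differed from day 1 to day 3 by -0.20 and -0.56. The small difference of miR-125a-3p from day 3 to day 5 turned to 0.18 with detection on all 4 arrays of a day, 0.021 with normexp and 0.41 in the deposited values, and lay between -0.43 and 0.46 with 1 array left out.

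The labels number the replicates 1 to 4 at each day. Of 12 correlations between the deviations of same-numbered arrays 11 were over 0.1 and the lowest was 0.09, and 9 were highest with the array's own number, and since 1 correlation fell short the numbers were not taken as pairs. With the replicate number as a block, the changes of the members were the same, for example 2.49 for miR-99b from day 1 to day 5, with 5, 5 and 4 members called in the 3 contrasts and 206 miRNAs past the F test. In sign tests of 4 numbered pairs, no adjusted p could pass. Dim signals limit miR-99b at day 1 and miR-351.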
